A study of Mus musculus with 10 samples.

Results

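The genes described here encode a lectin, granule proteins and ribonucleases linked to mouse eosinophils, and an adhesion receptor of myeloid cells. They also include the chemokines and receptor that bring eosinophils into tissue. They were the rows of the deposited FPKM table with the symbols Siglecf, Ccr3, Ccl11, Ccl24, Epx, Prg2, Ear1, Ear2, Ear6 and Adgre4, 10 of 19175 genes. RNA of skin from C57BL/6 mice was sequenced in the MC903 model, in which a vitamin D analogue put on the skin causes a type 2 dermatitis. The comparison was between 5 libraries labelled basophils VAMP7 CKO, a knockout limited to basophils, and 5 libraries labelled Flox, whose treatment label is WT. VAMP7 is a vesicle membrane protein that takes part in secretion. The series title places all 10 libraries in the MC903 model, so no untreated skin stands beside them. The labels used here do not give the promoter that drives Cre, nor the age of the mice.

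Eosinophils are granulocytes of type 2 inflammation. Their granules hold major basic protein, a peroxidase and ribonucleases, whose transcripts are made mainly while the cell matures in the bone marrow. Eotaxins are chemokines that draw eosinophils into tissue through the receptor CCR3, and interleukin-4 and interleukin-13 induce them through the factor STAT6. Eotaxin-1 (Ccl11) is made largely by fibroblasts and epithelium, and eotaxin-2 (Ccl24) largely by macrophages.

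The data are FPKM, read counts divided by transcript length and by the mapped total, so levels can be set beside each other between genes. From the lowest FPKM of short genes, depth was roughly estimated at 19800000 to 20700000 reads per library. The estimate is the median within a fixed window, which held 71 to 99 genes per library, with 19 to 40 below it. The window bounds the result beforehand, so this depth and the reads per gene given below are rough. Keratinocyte markers, summed over 7 genes, stood at 5694 to 8421 FPKM. Vamp7 overlapped between groups, between 17.3 and 19.2 FPKM across CKO and between 18.1 and 22.5 FPKM across Flox, and since most skin cells are not basophils this does not check the labels. CKO replicate 1 stood apart with a limma quality weight of 0.272, against 0.561 to 2.12 in the others, and with the highest muscle gene score. That score was 4.00 to 5.88 in CKO and 3.39 to 4.09 in Flox, so it largely follows group. A fit with it as a covariate therefore cannot separate muscle from genotype. The libraries are numbered but not said to be separate animals, so a p-value here measures the spread between these libraries.

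Ccl24, Siglecf, Ccr3 and Ear6 were lower in every CKO library than in every Flox library, with means 1.55-fold to 2.57-fold lower, while Ccl11, Adgre4, Prg2, Ear1 and Ear2 overlapped between the groups. In bulk skin fewer cells of a type and less RNA per cell cannot be told apart. Epx was at or near 0 in all 10 libraries. None of the 9 genes tested passed the threshold of 0.05 on the adjusted p (limma, Benjamini-Hochberg over the 13186 genes tested), where 0.0607% of all genes were called lower and 0.0455% higher. The 4 genes without overlap compare with 3.00% of all genes tested that were lower without overlap, and 4.23% without overlap in either direction. At an unadjusted p under 0.05 there were 5 lower genes, those 4 and Prg2, against a background of 10.3%, or 15.1% of all genes in either direction. All 9 had a negative log2 fold change, as had 60.5% of all genes, and their median was -0.47 beside -0.027 over all genes tested. Each of the 9 was at 1 FPKM or more in all 10 libraries. Fold changes below are CKO against Flox, fitted on log2 of FPKM + 1, a pseudocount that understates the change of genes at a few FPKM.

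**Figure D1:**
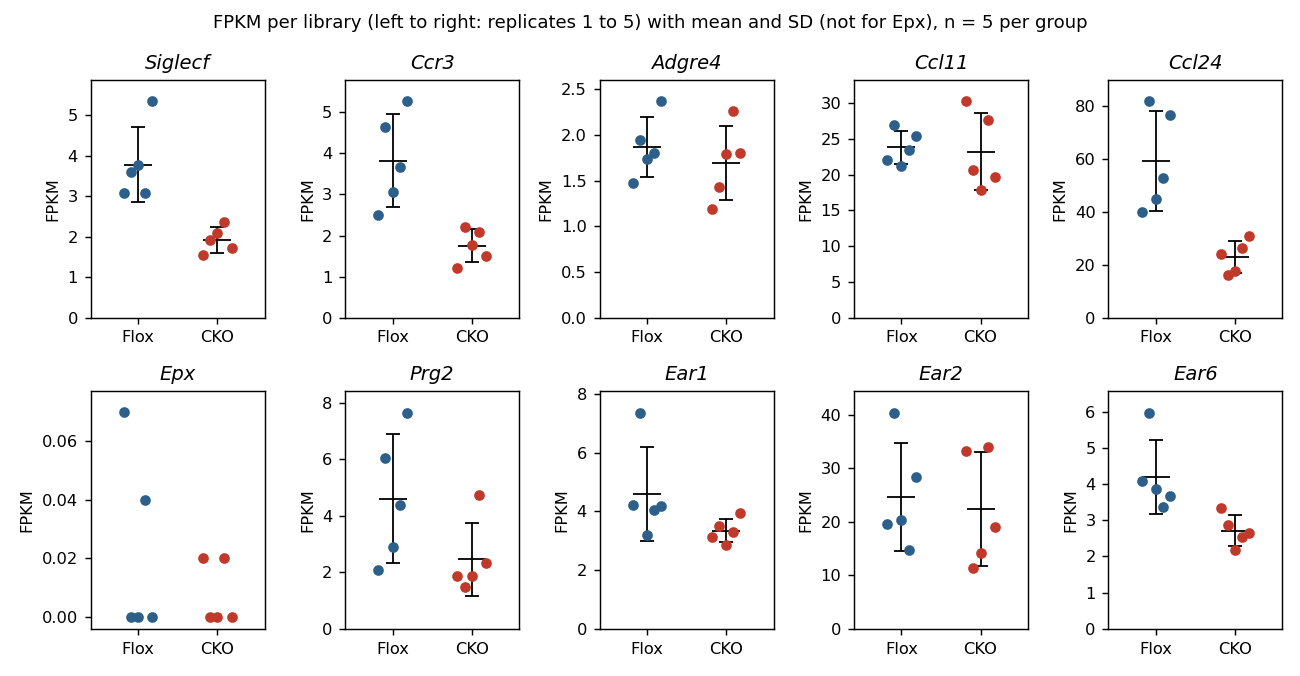
FPKM of the 10 genes in each library, with Flox in blue and CKO in red, replicates 1 to 5 from left to right, and the mean with SD in black except for Epx. For Siglecf, Ccr3, Ccl24 and Ear6 all 5 CKO points lie under all 5 Flox points, and Epx does not exceed 0.07 FPKM.

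The eotaxins differed from each other in this comparison, as their ratio shows. Ccl24 (Entrez 56221), the eotaxin of macrophages, was at 24.2, 16.3, 17.6, 26.4 and 30.7 FPKM in CKO replicates 1 to 5 and at 39.9, 81.9, 44.8, 53.0 and 76.8 FPKM in Flox replicates 1 to 5. The highest CKO library lay below the lowest Flox library. Its group means were 23.0 ± 6.08 and 59.3 ± 19.0 FPKM (SD, n = 5 each), with a log2 fold change of -1.31 (SE 0.23, 95% interval -1.82 to -0.79) and an adjusted p of 0.0651 in limma. Ccl24 thus had the largest fold change of the 9 genes, and it did not pass over all genes.

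Ccl11 (Entrez 20292), the eotaxin of fibroblasts and epithelium, was at 30.2, 20.7, 17.8, 27.6 and 19.7 FPKM in CKO replicates 1 to 5 and 22.1, 26.9, 21.2, 23.4 and 25.4 FPKM in the Flox libraries. The Flox values lay inside the CKO range. The means were 23.2 ± 5.40 and 23.8 ± 2.34 FPKM (SD, n = 5 each), with a log2 fold change of -0.057 (95% interval -0.36 to 0.25, limma adjusted p = 0.894). The sign turned to 0.027 without CKO replicate 3, and with the muscle gene score of each library as a covariate the value was -0.39.

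Their ratio separated the groups. Ccl24 stood at 0.801, 0.787, 0.985, 0.957 and 1.56 times Ccl11 in the CKO libraries, and at 1.81, 3.05, 2.11, 2.26 and 3.03 times in the Flox libraries. In every Flox library Ccl24 was the more abundant eotaxin per length, and in 4 of 5 CKO libraries it was the less abundant. On the log2 scale the ratio was lower in CKO, at -0.020 ± 0.383 against 1.23 ± 0.329 (SD, n = 5 each, difference -1.25). A two-sided exact permutation test gave p = 0.00794, the smallest that 252 assignments can give, and 0.0159 adjusted over the 4 pairs of genes compared. The sign held in each of 13 alternative settings, at -1.41 to -1.16. Pairing same-numbered libraries gave an exact p of 0.0625, the smallest that test can give, so it cannot pass there. With a pseudocount of 0.1 the adjusted p was 0.0317 (exact permutation). The pairs were picked with earlier results of these data known, so this p gives no separate support to the lower values of Ccl24.

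**Figure D2:**
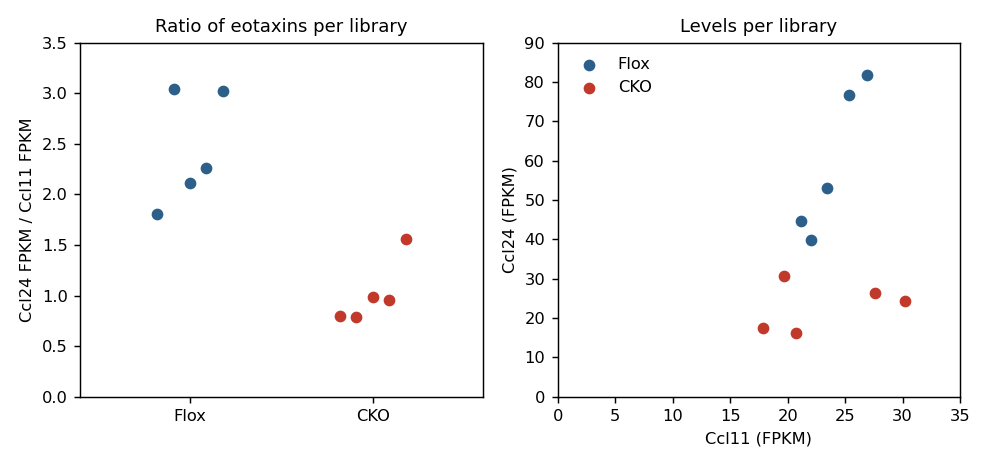
Left, the ratio of Ccl24 to Ccl11 FPKM in each library, with replicates 1 to 5 from left to right. Right, the FPKM of both eotaxins in each library. The Flox libraries (blue) lie at ratios of 1.81 to 3.05 and the CKO libraries (red) at 0.787 to 1.56, with the Flox range of Ccl11 inside that of CKO.

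Of the other chemokines that bind CCR3, Ccl7 was between 86.5 and 163 FPKM across CKO and between 133 and 167 FPKM across Flox, with a log2 fold change of -0.31 (SE 0.15, limma adjusted p = 0.379). Ccl5 was at 2.66 to 28.6 and 5.28 to 24.9 FPKM, and Ccl28 stayed under 1 FPKM and was not tested. So 0 of the 2 tested passed in limma, and 0 had an unadjusted p under 0.05. The counts of list genes at an unadjusted p under 0.05 here and below cover either direction and stand against 15.1% of all genes tested, so 1 or 2 genes of a short list are near that background. Ccl7 was the most abundant of these transcripts per length in either group.

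The eotaxin receptor Ccr3 (Entrez 12771), which sits on eosinophils and, in humans, also on basophils, was at 1.22, 2.20, 1.76, 2.08 and 1.49 FPKM in CKO. It was at 2.50, 4.64, 3.06, 3.67 and 5.27 FPKM in Flox, again without overlap. The means of 1.75 ± 0.406 and 3.83 ± 1.13 FPKM (SD, n = 5 each) differed by -0.79 on the log2 scale (SE 0.16, 95% interval -1.15 to -0.43, limma adjusted p = 0.0833). Siglecf (Entrez 233186), an inhibitory lectin of eosinophils that binds sialic acid, was at 1.54, 1.93, 2.09, 2.37 and 1.72 FPKM in CKO and at 3.09, 3.61, 3.77, 3.09 and 5.35 FPKM in Flox. Its log2 fold change was -0.69 (SE 0.13, 95% interval -0.97 to -0.42, limma adjusted p = 0.0651). With array quality weights Siglecf passed (log2 fold change -0.59, limma adjusted p = 0.0376). Those weights called 60 genes lower and 30 higher over all genes tested, against 8 and 6 without them. Leaving out CKO replicate 1, the library of lowest weight, did not make Siglecf pass (limma adjusted p = 0.0857). Its adjusted p in limma ran from 0.0376 to 0.367 over all settings. Both genes rest on few reads, an estimated 81 to 279 per library for Siglecf and 81 to 346 for Ccr3.

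The start regions of these surface genes are shown because Siglecf and Ccr3 both separated the groups. The sequences are RefSeq's on GRCm38.p6, 250 bases before to 50 after RefSeq's start position, 5′ to 3′ on the gene's strand, with GATAA in capitals. GATAA is the core read by GATA factors, which set the eosinophil and basophil lineages. Siglecf lies at chr7:43351091-43351390 on the plus strand and Ccr3 at chr9:124021721-124022020 on the plus strand.
Siglecf: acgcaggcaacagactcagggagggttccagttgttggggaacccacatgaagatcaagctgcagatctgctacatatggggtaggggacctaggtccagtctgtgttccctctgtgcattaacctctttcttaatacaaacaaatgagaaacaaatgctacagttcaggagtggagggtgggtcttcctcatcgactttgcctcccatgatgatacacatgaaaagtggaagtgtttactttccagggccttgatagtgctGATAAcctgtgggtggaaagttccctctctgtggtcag
Ccr3: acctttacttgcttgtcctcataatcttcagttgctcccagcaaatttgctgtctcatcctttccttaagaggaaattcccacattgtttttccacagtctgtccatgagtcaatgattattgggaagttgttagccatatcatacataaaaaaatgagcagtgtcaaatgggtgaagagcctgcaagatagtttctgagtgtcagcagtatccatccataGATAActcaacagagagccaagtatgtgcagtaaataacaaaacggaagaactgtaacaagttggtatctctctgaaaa
Counted from RefSeq's start position, the first base after the 250 upstream bases, as 0, GATAA begins at position 12 in Siglecf and at position -29 in Ccr3. Of the 7 genes with an entry, Siglecf, Ccr3, Ear1, Ear2, Ear6 and Adgre4 hold GATAA on either strand, as do 25.4% of 32851 promoter windows of this length, and Epx does not. The palindrome TTC and GAA spaced by 4 bases, the STAT6 form, was found in Epx and in 6.95% of windows. The same letters spaced by 3 bases, the form of other STAT factors, were found in none of the 7 and in 8.30% of windows. These are matches of letters, not binding sites. The Ear windows are near copies, with Ear1 identical to Ear2 at 294 of 297 aligned bases and to Ear6 at 259 of 279. Their matches are thus not separate, and Adgre4 holds GATAA though it overlapped between the groups. Ccl11, Ccl24 and Prg2 have no entry in the table.

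Adgre4 (Entrez 52614), an adhesion receptor of myeloid cells related to F4/80, was at 1.19, 1.43, 1.79, 2.26 and 1.80 FPKM in CKO and 1.48, 1.95, 1.74, 1.80 and 2.37 FPKM in Flox. The groups overlapped through most of their range, with a log2 fold change of -0.096 and an interval of -0.35 to 0.16 (limma adjusted p = 0.750). Array quality weights turned its sign, to 0.025. Its relative Adgre1, which encodes F4/80 itself, was between 26.6 and 39.2 FPKM across CKO and between 40.0 and 55.8 FPKM across Flox, without overlap but without passing (log2 fold change -0.49, SE 0.11, limma adjusted p = 0.116). Among 6 tested genes of other Siglec lectins 0 passed in limma and 1 had an unadjusted p under 0.05, against 15.1% of all genes. Of these lectins, Cd33 was between 24.1 and 28.8 FPKM across CKO and between 17.2 and 24.5 FPKM across Flox.

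The granule proteins could be measured only in part. Epx (Entrez 13861), eosinophil peroxidase, was listed at 0.02 FPKM in CKO replicates 1 and 4, at 0.07 and 0.04 FPKM in Flox replicates 1 and 4, and at 0 in the other 6 libraries. This corresponds to an estimated 0 to 4 reads per library, so no difference was detectable at this depth. Without a filter on low values its log2 fold change was -0.019 (limma adjusted p = 0.765). Prg2 (Entrez 19074), major basic protein, was at 1.87, 1.5, 1.86, 4.73 and 2.34 FPKM in CKO and 2.10, 6.05, 2.89, 4.37 and 7.65 FPKM in Flox. CKO replicate 4 lay among the Flox libraries and Flox replicate 1 among the CKO libraries, and the log2 fold change of -0.67 (SE 0.30, 95% interval -1.33 to -0.0028) had an adjusted p of 0.329 in limma. The second major basic protein gene, Prg3, was at 0.21 to 1.00 FPKM and was not tested.

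Epx, Prg3, the interleukin-5 receptor Il5ra (0.46 to 1.07 FPKM) and Ear10 (0 to 0.18 FPKM) were thus at or under about 1 FPKM in all 10 libraries. The granule gene Prg2 was higher, at 1.5 to 7.65 FPKM. With the granule genes Epx and Prg3 this low, the values do not give a number of eosinophils. The ribonuclease gene Ear2 was at 11.4 to 40.4 FPKM in the same libraries. Which cells gave the ribonuclease transcripts was not tested, so they are not read as a measure of eosinophils.

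Whether the surface and granule genes differed in their response was tested directly. The log2 difference of Ccr3 and Prg2 was -0.28 ± 0.465 in CKO and -0.15 ± 0.265 in Flox (SD, n = 5 each), with an exact permutation p of 0.627, also 0.627 after adjustment over the 4 pairs. It changed sign, to 0.028, without CKO replicate 4. The log2 difference of Siglecf and Epx differed by -0.67 (exact permutation p = 0.00794, adjusted 0.0159), but Epx is near 0, so this restates Siglecf, and it did not pass with a pseudocount of 0.1 (exact permutation p = 0.0476, adjusted 0.0952).

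The ribonucleases are paralogs that 50-base reads cannot fully separate. Of the 50-base windows of the longest annotated transcript, 57.4% in Ear1 and 41.5% in Ear2 also occur in a transcript of another gene, mostly Ear family genes and pseudogenes, against 1.07% in Ear6, 0.235% in Siglecf and 0% in Ccr3, Ccl11, Ccl24, Epx, Prg2 and Adgre4. How such reads were assigned is not stated in the labels, so Ear1 and Ear2 are uncertain. The low value of Ear10 is uncertain too, with 39.9% of its windows shared in this way. Their start regions are shown to let the paralogs be compared letter by letter. Ear1 lies at chr14:43819590-43819889 on the minus strand, Ear2 at chr14:44102404-44102703 on the plus strand and Ear6 at chr14:51853518-51853817 on the plus strand (RefSeq, GRCm38.p6), and capitals in Ear2 and Ear6 mark bases that differ from the aligned base of Ear1.
Ear1: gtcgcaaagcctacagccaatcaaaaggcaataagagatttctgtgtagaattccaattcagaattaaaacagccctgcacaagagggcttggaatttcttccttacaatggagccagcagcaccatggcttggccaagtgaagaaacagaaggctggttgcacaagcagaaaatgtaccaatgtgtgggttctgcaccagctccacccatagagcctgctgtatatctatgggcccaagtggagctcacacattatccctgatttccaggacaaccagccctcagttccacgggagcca
Ear2: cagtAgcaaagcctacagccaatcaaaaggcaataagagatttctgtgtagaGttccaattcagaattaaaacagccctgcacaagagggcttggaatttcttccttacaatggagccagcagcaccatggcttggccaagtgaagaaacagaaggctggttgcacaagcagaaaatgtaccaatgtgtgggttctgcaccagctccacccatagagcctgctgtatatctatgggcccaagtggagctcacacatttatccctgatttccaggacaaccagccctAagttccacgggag
Ear6: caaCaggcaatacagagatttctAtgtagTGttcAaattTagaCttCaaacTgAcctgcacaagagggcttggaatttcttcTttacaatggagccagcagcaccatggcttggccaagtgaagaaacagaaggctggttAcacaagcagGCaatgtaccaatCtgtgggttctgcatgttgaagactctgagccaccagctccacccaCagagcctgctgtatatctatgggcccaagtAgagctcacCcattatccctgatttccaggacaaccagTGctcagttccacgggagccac
Ear1 and Ear2 were identical at 294 of 297 aligned bases and Ear1 and Ear6 at 259 of 279, with insertions left in lower case. The GATAA match, on the minus strand as TTATC, begins at positions 3, 6 and 2 of Ear1, Ear2 and Ear6, counted from RefSeq's start position as 0.

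Ear6 (Entrez 93719), the most separable of the 3, was at 3.33, 2.87, 2.17, 2.54 and 2.65 FPKM in CKO and 4.09, 5.97, 3.86, 3.37 and 3.67 FPKM in Flox. The groups met closely, CKO replicate 1 at 3.33 and Flox replicate 4 at 3.37 FPKM, without overlapping. The means were 2.71 ± 0.428 and 4.19 ± 1.03 FPKM (SD, n = 5 each), with a log2 fold change of -0.47 (SE 0.13, limma adjusted p = 0.149). Ear1 (Entrez 13586) was at 3.14, 3.49, 2.87, 3.29 and 3.95 FPKM in CKO and 4.21, 7.36, 3.18, 4.05 and 4.20 FPKM in Flox, with 4 of 5 Flox libraries above the highest CKO library. Its log2 fold change was -0.33 (SE 0.16, limma adjusted p = 0.357).

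Ear2 (Entrez 13587) was several times more abundant per length than Ear1 and Ear6. It was at 33.2, 11.4, 14.2, 34.0 and 18.9 FPKM in CKO and 19.5, 40.4, 20.4, 14.7 and 28.4 FPKM in Flox. High and low libraries occurred in both groups, and the 95% interval of its log2 fold change of -0.18 ran from -0.93 to 0.57 (limma adjusted p = 0.854). The sign turned without CKO replicate 2 (0.016) and without Flox replicate 2 (0.013), and with the muscle covariate the value was -0.82. The log2 difference of Ear6 and Ear2 did not differ between groups beyond its spread (-0.29, exact permutation p = 0.397, adjusted 0.529).

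The related ribonuclease genes Rnase2a and Rnase2b share no 50-base window with another gene. Rnase2b was between 18.9 and 28.1 FPKM across CKO and between 18.4 and 51.9 FPKM across Flox (log2 fold change -0.41, SE 0.25, limma adjusted p = 0.473), and Rnase2a at 2.36 to 6.14 and 3.36 to 10.3 FPKM. The sum over 6 genes (Ear1, Ear2, Ear6, Ear10, Rnase2a and Rnase2b) is less exposed to how reads shared among them were split. It stays exposed to reads shared with pseudogenes outside the sum, such as Ear-ps9, which holds 41.4% of the windows of Ear1. The sum stood at 69.2, 47.6, 42.1, 61.9 and 58.0 FPKM in CKO and 76.2, 116, 55.2, 57.4 and 58.3 FPKM in Flox. Flox replicate 2 was the highest, and 3 of 5 Flox libraries lay within the CKO range. Of the wider RNase A family beside the 10 genes, 0 of 7 tested passed in limma and 1 had an unadjusted p under 0.05, against 15.1% of all genes. Ang2, an angiogenin, had a log2 fold change of -0.77. Lpo, lactoperoxidase, a relative of Epx, had a log2 fold change of -0.32.

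**Figure D3:**
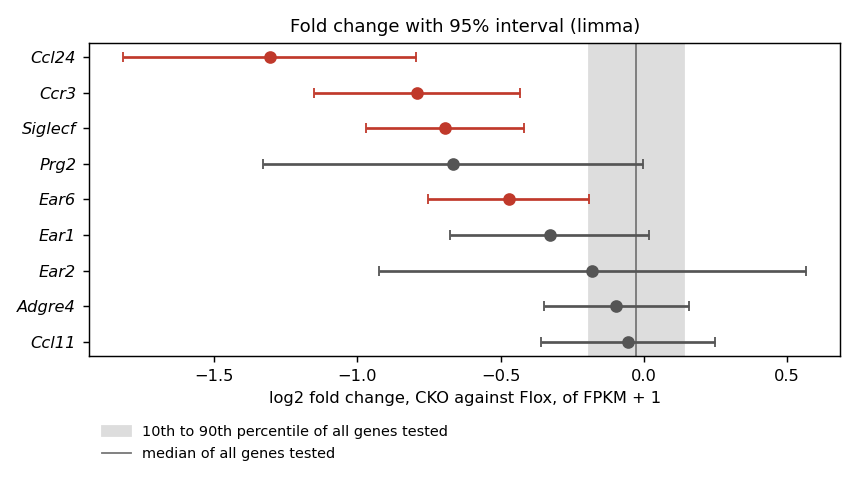
Log2 fold change of the 9 tested genes with 95% intervals from limma, n = 5 per group, in red where the groups do not overlap. The grey band spans the 10th to 90th percentile of all genes tested, -0.19 to 0.14, and the grey line is their median of -0.027. Ccl24, Ccr3, Siglecf and Prg2 have estimates below -0.6, while Ccl11, Adgre4 and Ear2 lie inside the band.

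The highest values fell in few libraries. In Flox, replicate 2 was the highest for Ccl11, Ccl24, Ear1, Ear2 and Ear6, and replicate 5 for Siglecf, Ccr3, Prg2 and Adgre4, so that these libraries held the highest Flox value of all 9 genes. In CKO, replicate 4 was the highest for Siglecf, Prg2, Ear2 and Adgre4. CKO replicate 1, the library that stood apart, was the lowest in its group for Siglecf, Ccr3 and Adgre4 but the highest for Ccl11 and Ear6. Without it the log2 fold changes were -1.33 for Ccl24, -0.64 for Siglecf, -0.72 for Ccr3 and -0.53 for Ear6.

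For Siglecf, Ccr3, Ccl24 and Ccl11, the genes whose pattern across libraries was most like theirs were found by Pearson r of log2 values, pooled over both groups, among 13177 genes. They are a description over 10 libraries that share 2 groups, with no test. For Siglecf they were Fchsd2 (r = 0.96, Spearman rho = 0.94), Rps6ka1 and Rpa1, and for Ccr3 Rcor1 (r = 0.96, rho = 0.96), Dlgap5 and Sp1. For Ccl24 they were Zfp14 (r = 0.97, rho = 0.98), Anln and Nedd1, and for Ccl11 Egln3 (r = 0.94, rho = 0.96), Wnt7b and Pou2f3.

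Upstream of the eotaxins, the genes of interleukin-4 and interleukin-13 signalling had a median log2 fold change of -0.12, with 0 of 9 passing in limma and 2 at an unadjusted p under 0.05, against 15.1% of all genes. Il4 was between 1.59 and 5.48 FPKM across CKO and between 7.30 and 12.8 FPKM across Flox, without overlap (log2 fold change -1.15, SE 0.24, limma adjusted p = 0.0845). Il13 was at 0.41 to 1.31 and 0.57 to 2.27 FPKM. The receptor chain Il4ra was between 88.7 and 107 FPKM across CKO and between 71.7 and 104 FPKM across Flox (log2 fold change 0.13), and the kinase Tyk2 had -0.14.

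Of 12 genes of eosinophil growth and activation, 8 were tested and 0 passed in limma, with 1 at an unadjusted p under 0.05, against 15.1% of all genes, and a median of -0.091. Csf2rb2, a receptor chain for interleukin-3, was between 23.4 and 42.1 FPKM across CKO and between 40.1 and 54.6 FPKM across Flox (log2 fold change -0.45). The chain Csf2rb, shared by the receptors of interleukin-3, interleukin-5 and GM-CSF, had -0.31, Il33 had -0.21 and its receptor Il1rl1 -0.13. Il5, the eosinophil growth factor, was at 0 to 0.16 FPKM in all 10 libraries and was not tested. Il5ra, its receptor, was between 0.46 and 0.66 FPKM across CKO and between 0.67 and 1.07 FPKM across Flox, and was not tested either.

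Of 8 lineage transcription factors, Gata2 fell over all genes tested, from 26.8 ± 2.62 FPKM in Flox to 12.2 ± 3.39 in CKO (SD, n = 5 each, log2 fold change -1.11, limma adjusted p = 0.0463), and 0 rose. Gata1, needed for eosinophil development, was between 0.79 and 1.12 FPKM across CKO and between 1.44 and 2.23 FPKM across Flox (log2 fold change -0.46, limma adjusted p = 0.0651). Cebpe had a log2 fold change of -0.32 and Id2 one of 0.28. Of 6 tested further genes of eosinophils, 0 rose and 1 fell, Hrh4, the histamine H4 receptor (log2 fold change -0.99, limma adjusted p = 0.0463). The lipoxygenase Alox15 was between 3.69 and 10.2 FPKM across CKO and between 12.4 and 17.5 FPKM across Flox (log2 fold change -1.02, limma adjusted p = 0.0833), and Alox5 had -0.24. Gata2 and Hrh4 are genes of basophils as well.

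In the same libraries, the list medians for markers of other cells lay on either side of 0. Of 12 basophil markers 11 lay below 0 on the log2 scale, against 60.5% of all genes, and their median was -1.06. Of these, Cd200r3, Itga2b and Gata2 fell (limma adjusted p = 0.0463 each), where 0.0607% of all genes were called lower. Mcpt8 had the largest log2 fold change of the list, -2.56, but did not pass (limma adjusted p = 0.0507). Cpa3 had a log2 fold change of -0.032 and Hdc one of 0.0017. The basophil list summed to 364 to 481 FPKM across CKO and 572 to 688 across Flox, and none of its genes was at 0 in any library. The calls of Gata2, Hrh4, Cd200r3 and Itga2b all failed to pass with the muscle covariate, the replicate block or no filter on low values, and without CKO replicate 2 or 4 or any 1 Flox library (limma). Of 16 tested skeletal muscle genes all lay above 0 on the log2 scale, against 39.5% of all genes, their median was 0.92, and 0 passed in limma (14 at an unadjusted p under 0.05, against 15.1% of all genes). The 19 listed muscle genes, tested or not, summed to 429 to 1720 FPKM across CKO and 275 to 490 across Flox. Of 7 tested neutrophil genes 6 lay above 0, their median was 0.49 and 0 passed in limma (2 at an unadjusted p under 0.05). The 10 listed neutrophil genes, tested or not, summed to 3564 to 8308 FPKM across CKO and 2811 to 4829 across Flox. The part of these cells in the values of Ccr3, Siglecf and Ccl24 was not tested. The fit with the muscle covariate does not test it, since that score largely follows group and cannot be separated from genotype. In that fit the log2 fold changes of Ccr3, Siglecf and Ccl24 were -0.79, -0.68 and -1.60 (limma adjusted p = 0.397, 0.367 and 0.214).

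For the cells named as sources of the eotaxins, macrophage markers had a median of 0.028 over 10 genes and sums of 2025 to 2478 FPKM across CKO and 1993 to 2311 across Flox, with 0 passing in limma and 2 at an unadjusted p under 0.05, Adgre1 on the lower side and Mertk at 0.23. Fibroblast markers had a median of -0.13 over 8 genes and sums of 3841 to 6146 and 4936 to 6290 FPKM, with 0 passing and 0 at an unadjusted p under 0.05 in limma. Mast cell markers had a median of 0.0075 over 9 genes, with sums of 583 to 734 and 488 to 742 FPKM and 0 passing in limma (1 at an unadjusted p under 0.05). Of 5 tested genes of nonclassical monocytes, which carry Adgre4 too, 0 passed in limma and 1 had an unadjusted p under 0.05.

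**Figure D4:**
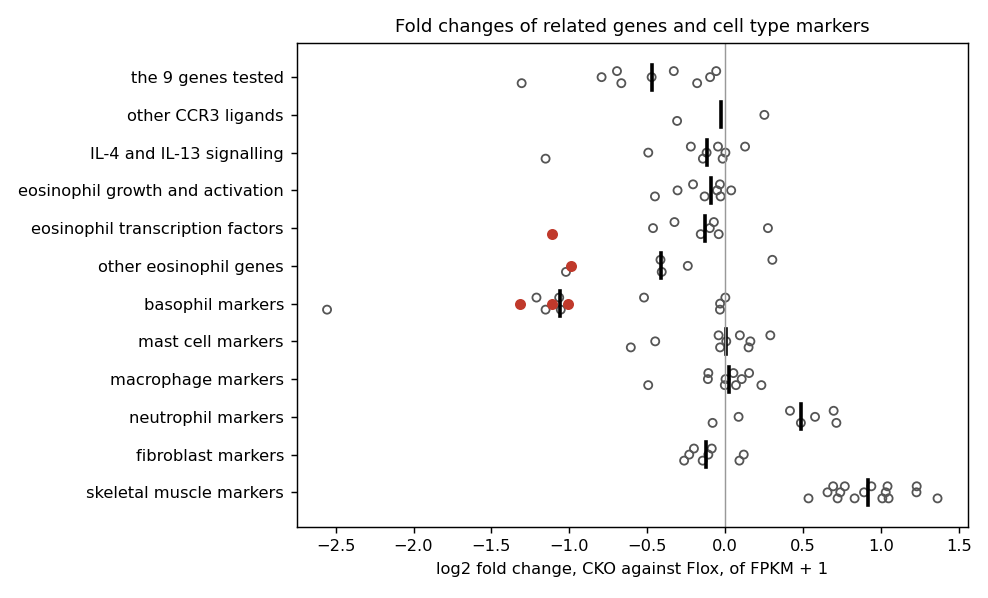
Log2 fold change of each tested gene of 12 lists, with passing genes (limma adjusted p under 0.05) as filled red points, other genes as open circles and the list median as a black bar. The basophil markers lie furthest to the left, with a median of -1.06, and the muscle markers furthest to the right, with 0.92. No point of the 9 genes tested is filled.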

How the data were processed

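Poly(A) RNA of mouse skin was read in 5 CKO and 5 Flox libraries, grouped by their titles. The authors deposited FPKM per gene, per the file headers, rounded to 2 decimals. The submitters' processing notes name HISAT, an aligner, and the sources used here give no counter, genome build or annotation. The design text gives another number of samples than the labels, which were followed.

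Genes reaching 1 FPKM in 5 or more libraries, 13186 of them, were tested with limma-trend (limma 3.58.1, R 4.3.3) on log2(FPKM + 1), two-sided, with Benjamini-Hochberg adjustment over all of them and a threshold of 0.05. The code was tested on simulated data. Differences between paired genes were tested by exact permutation (scipy 1.17.1) over 252 assignments. Depth was estimated from single-transcript GENCODE genes of 400 to 1500 bases, as the median within a fixed window around the level taken as 1 read. The window bounds the estimate, so differences between libraries are rough. Reads per gene were estimated from this depth and the longest annotated coding transcript. Promoters were aligned with biopython 1.88. The genes and lists were chosen with earlier results of these data known. All 10 genes are named, as are up to 4 genes of lowest p per list and any list gene that passed. Some untested list genes are named by level alone, and so are the 3 most similar genes of 4 members by their pattern. Mcpt8, Cpa3 and Hdc of the basophil list are named as well. Same-numbered libraries correlated at -0.21 to 0.21 after removal of group means, so the numbers were not taken to pair them.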

Additional observations from a re-analysis of the deposited data

Results flagged for a closer look

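Among 28 groups of 5 values, 3 held a library whose gap to the next was a large part of the group's range, where chance flags about 1 in 20 groups. CKO replicate 4 was the highest CKO library for Prg2, at 4.73 FPKM with the next at 2.34, a gap of 0.740 of the range. Flox replicate 2 was the highest Flox library for Ear1, at 7.36 FPKM with the next at 4.21, a gap of 0.754 of the range. The same library was the highest for Ear6, at 5.97 FPKM with the next at 4.09, a gap of 0.723 of the range. Without Flox replicate 2 the log2 fold changes of Ear1 and Ear6 were -0.17 and -0.36, and without CKO replicate 4 that of Prg2 was -0.86.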

How the results depend on the processing

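Ccl24, Ccr3, Ear1, Ear6 and Prg2 kept their sign and stayed short of the threshold in 19 alternatives each, with log2 fold changes of -1.60 to -1.17, -1.07 to -0.63, -0.42 to -0.17, -0.59 to -0.36 and -1.02 to -0.37. Siglecf kept its sign, at -0.92 to -0.59, and array quality weights called it, the 1 lower call among these genes. Signs turned for Ccl11 (-0.16 to 0.027 with 1 library left out, positive without CKO replicate 3), Ear2 (0.016 and 0.013 without CKO and Flox replicate 2) and Adgre4 (0.025 with array quality weights), which was not among the genes at a mean of 2 FPKM or more. The median of the genes tested was -0.68 to -0.36. Over all genes, 8 lower and 6 higher calls became 2 and 1 without a filter, 6 and 2 with equal library totals, 60 and 30 with array quality weights, and 0 and 0 with the replicate block (1911 at an unadjusted p under 0.05 in limma) or the muscle covariate (1265). Leaving out 1 library gave 0 to 15 lower and 0 to 11 higher calls. Of the paired genes, the Ccl24 and Ccl11 difference of -1.25 and the Siglecf and Epx difference of -0.67 did not pass with the replicate block, where no p can fall below 0.0625, and the latter, at -0.78, not with a pseudocount of 0.1. Leaving out 1 library gave -1.41 to -1.16, -0.74 to -0.56, -0.29 to 0.028 for Ccr3 and Prg2, and -0.50 to -0.100 for Ear6 and Ear2. The cause of these changes was not tested. An estimated 24 to 346 reads per library limit Siglecf, Ccr3, Prg2, Ear1, Ear6 and Adgre4.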
